A study of Mus musculus with 13 samples.

Results

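Transcripts of 10 genes of the BCL-2 family, which sets whether a T cell survives or dies by apoptosis, were followed in T cells sorted from B16-F10 tumors. The genes were chosen by symbol (Bcl2, Bcl2l1, Mcl1, Bcl2l11, Bid, Bbc3, Pmaip1, Bad, Bax and Bak1), and all 10 were among the 12963 genes of the deposited table and passed the filter on low values. B16-F10 is a mouse melanoma cell line, implanted here subcutaneously, and the hosts were Foxp3-EGFP-DTR mice. In this strain the endogenous Foxp3 gene, whose product defines regulatory T (Treg) cells, also expresses EGFP and a human receptor for diphtheria toxin (DTx), so that DTx kills Treg cells and PBS spares them. The allele was shared by all 5 groups. There were 13 libraries. With PBS, 3 came from Treg cells (Treg PBS), 2 from CD4+ conventional T (Tconv) cells (CD4 PBS, numbered 2 and 3) and 2 from CD8+ T cells (CD8 PBS, numbered 2 and 3). With DTx, 3 came from CD4+ Tconv cells (CD4 DTx) and 3 from CD8+ T cells (CD8 DTx). CD8+ T cells are counted among the Tconv libraries below. The labels give neither the age of the mice nor which libraries shared an animal, so p-values measure the spread between these libraries.

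The BCL-2 family works at the outer membrane of the mitochondrion. BCL-2, BCL-XL (encoded by Bcl2l1) and MCL-1 are pro-survival proteins that hold the effectors BAX and BAK (encoded by Bak1) in check. BH3-only proteins such as BIM (encoded by Bcl2l11), BID, PUMA (encoded by Bbc3), NOXA (encoded by Pmaip1) and BAD sense stress or loss of survival signals, and they neutralize the pro-survival proteins or activate the effectors, which then release cytochrome c and start the caspases. In T cells BCL-2 is maintained by IL-7, BIM limits the lifespan of cells that have responded to antigen, and Treg cells are known to depend on MCL-1.

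Values are normalized reads, the unit of the deposited table, in which 1 sequenced read was worth 0.661 to 1.37 units. The libraries held 15947556 to 34140486 reads, and 3 reads, taken as the detection floor, came to 1.98 to 4.10 normalized reads. This floor covers counting error only. Foxp3 lay between 1178 and 1896 in the Treg libraries and at or below 12.1 in all others, and Cd8a reached 711 and 1302 in CD4 DTx replicates 2 and 3 against 23475 or more in the CD8 libraries. The summed level of 10 proliferation genes was 27222 to 56128 in Treg PBS, 9474 to 10357 in CD4 PBS, 10886 to 14633 in CD8 PBS, 14310 to 21121 in CD4 DTx and 30397 to 51522 in CD8 DTx. The summed level of 5 melanocyte genes was 782 to 1229 in Treg PBS, 435 to 498 in CD4 PBS, 171 to 629 in CD8 PBS and 64.5 to 185 in the DTx libraries, and that of 3 erythroid genes was 948 to 6570.2 in the PBS libraries and 0 to 1175 in the DTx libraries. Summed myeloid markers (10 genes) ranged from 137 to 4135, B cell markers (4 genes) from 92.6 to 1296 and NK cell markers (4 genes, of which Eomes and Klrd1 are also made by CD8+ T cells) from 27.1 in Treg PBS to 16190 in CD8 DTx. Of the proliferation genes, 8 were called (limma, adjusted p under 0.05) in Treg PBS against CD4 PBS, 9 against CD8 PBS, 6 and 8 for DTx in CD4 and CD8 cells, and 1 and 0 for CD4 DTx and CD8 DTx against Treg PBS. In the same order the calls were 0, 1, 0, 0, 2 and 1 of 5 melanocyte genes, 1, 4, 0, 0, 2 and 4 of 4 NK cell genes, 1, 0, 0, 0, 2 and 1 of 4 B cell genes, 0, 0, 0, 0, 0 and 2 of 10 myeloid genes, 0 of 3 erythroid genes in each, and 0, 0, 0, 2, 0 and 1 of 10 immediate early genes, and the part of such cells in the results below was not tested. In sorted bulk samples, fewer cells of a type and less RNA per cell cannot be told apart.

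Promoters of the members were examined for short DNA motifs, because FOXO factors, which are inactivated by survival signals, are known to activate both Bcl2l11 and Bbc3. RefSeq windows of the 250 bases before annotated starts were searched for 9 members. The members had 1 to 3 windows each. The FOXO motif GTAAACA, searched on both strands, was found in 1 of 2 windows of Bcl2l11 and in 1 of 3 windows of Bbc3. No window of the other members searched had it, and it occurs in 3.17% of 32851 mouse promoter windows of that length. A stretch of each matching window is shown with the motif in capitals. The first lies at chr2:128125788-128125847 and the second at chr7:16310068-16310127 (GRCm38.p6, plus strand), and neither overlaps an annotated exon. The Bcl2l11 stretch lies upstream of the gene, and the Bbc3 stretch lies inside the gene, before one of its alternative starts.
Bcl2l11: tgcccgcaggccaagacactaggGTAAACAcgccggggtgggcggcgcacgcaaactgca
Bbc3: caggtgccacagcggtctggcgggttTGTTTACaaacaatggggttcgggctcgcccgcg
In Bcl2l11 the motif is on the plus strand, 227 to 221 bases before the annotated start, and in Bbc3 it is on the minus strand, 167 to 161 bases before the alternative start. The STAT motif TTCNNNGAA (7.02% of windows) and the AP-1 motif TGANTCA (6.75%) had no match in the windows of the members. These matches are descriptions of sequence, and no binding was measured.

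Bcl2, the pro-survival gene that IL-7 maintains in resting T cells, was lowest in Treg cells and highest in the Tconv cells of PBS-treated mice. Treg PBS replicates 1, 2 and 3 had 230.3, 905 and 1138 normalized reads, CD4 PBS replicates 2 and 3 had 3569 and 3394, and CD8 PBS replicates 2 and 3 had 4646 and 4068. After DTx the values were 1508, 1499 and 1791 in CD4 cells and 1384, 1638 and 2689 in CD8 cells. Every Treg library was below every Tconv library, and every DTx library lay between the Treg and the PBS Tconv libraries. The log2 fold change of Treg PBS was -2.49 against CD4 PBS (SE 0.52, limma, adjusted p = 0.00572) and -2.81 against CD8 PBS (SE 0.52, limma, adjusted p = 0.00318), both on a log2(value + 1) scale that understates the change of low genes. When only the groups compared were fitted, neither passed (limma, adjusted p = 0.0783 and 0.0526). Without Treg PBS replicate 1, which held the lowest value, both still passed in limma but were smaller, at -1.78 and -2.10. In order, the means were 4357 ± 408.5 (SD, n = 2) in CD8 PBS, 3482 ± 124 (SD, n = 2) in CD4 PBS, 1904 ± 692 (SD, n = 3) in CD8 DTx, 1599 ± 166 (SD, n = 3) in CD4 DTx and 758 ± 471 (SD, n = 3) in Treg PBS. Both CD4 PBS libraries lay below both CD8 PBS libraries. Limma, which takes the spread over all 5 groups, did not call this difference (-0.32, SE 0.57, limma, unadjusted p = 0.586). The CD4 DTx and CD8 DTx libraries overlapped, and their difference was not called either (-0.20, SE 0.47, limma, adjusted p = 0.95). CD4 DTx was above Treg PBS by 1.36 (SE 0.47), which missed the threshold (limma, adjusted p = 0.103). An antisense gene, D630008O14Rik, overlaps exons of Bcl2, and because the strand setting of the counting is not stated, reads of the pair cannot be told apart.

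**Figure D1:**
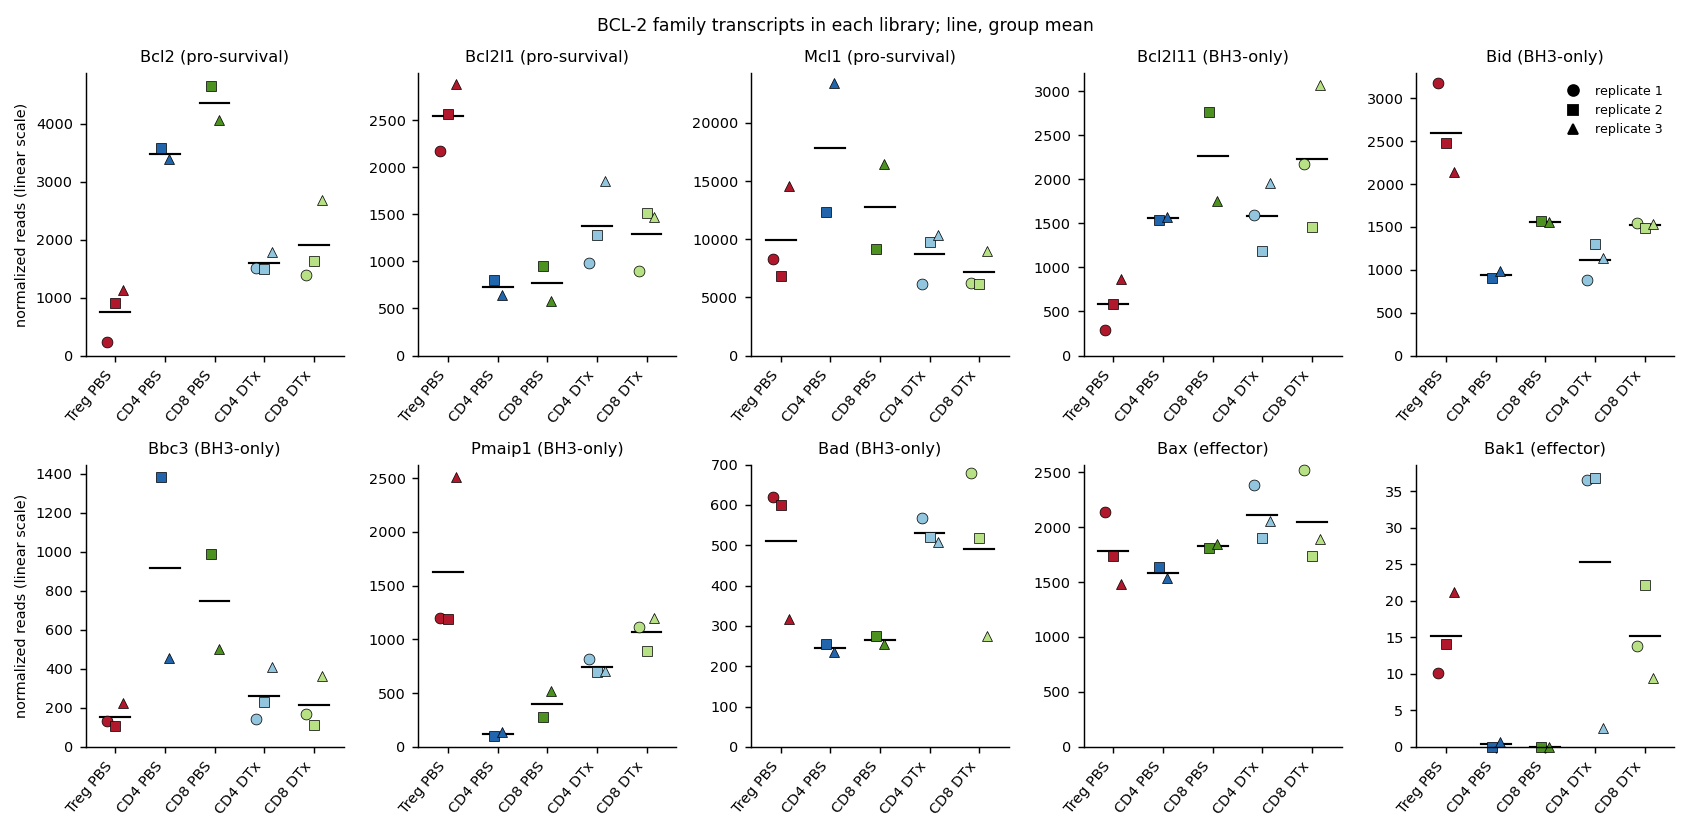
Normalized reads (vertical axis, linear, starting at 0) of each of the 10 genes in the 13 libraries, by group, with the replicate number as the symbol and a line at the group mean. Treg PBS has the lowest Bcl2 and the highest Bcl2l1, with means of 758 and 2539, while Bax stays between 1484 and 2517 in every library and Bak1 does not exceed 36.8.

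Bcl2l1, which encodes BCL-XL, was highest in Treg cells and lowest in the Tconv cells of PBS-treated mice. Its values were 2174, 2561 and 2883 in Treg cells, 808 and 647 in CD4 PBS, 955 and 579.8 in CD8 PBS, 982, 1276 and 1854 in CD4 DTx, and 895, 1509 and 1469.8 in CD8 DTx. All 3 Treg libraries were above all others, the CD4 DTx libraries were above both CD4 PBS libraries, and the CD8 DTx and CD8 PBS libraries overlapped. Treg PBS exceeded CD4 PBS by 1.80 (SE 0.33, 3.49-fold, limma, adjusted p = 0.00229) and CD8 PBS by 1.76 (SE 0.33, 3.39-fold, limma, adjusted p = 0.00318). The second call was lost without 1 library: without CD8 PBS replicate 3 the difference was 1.40 (limma, adjusted p = 0.0646). The order was Treg PBS (2539 ± 355, SD, n = 3), CD4 DTx (1371 ± 444, SD, n = 3), CD8 DTx (1291 ± 344, SD, n = 3), CD8 PBS (767 ± 265, SD, n = 2) and CD4 PBS (727 ± 113, SD, n = 2). The 2 DTx groups did not differ beyond their spread (0.08, 95% interval -0.56 to 0.71), nor did the 2 PBS Tconv groups (-0.04, 95% interval -0.82 to 0.74).

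Because both values come from 1 library, the ratio of Bcl2l1 to Bcl2 does not depend on the scaling between libraries. Its log2 value was 3.23, 1.5004 and 1.34 in Treg cells, -2.14 and -2.39 in CD4 PBS, -2.28 and -2.81 in CD8 PBS, -0.62, -0.23 and 0.05 in CD4 DTx, and -0.63, -0.12 and -0.87 in CD8 DTx. Thus reads of Bcl2l1 outnumbered those of Bcl2 in all Treg libraries and were outnumbered in all PBS Tconv libraries, and the DTx libraries lay between them without overlap on either side. The ratio of Bcl2 to its antagonist Bcl2l11 had group means of 0.24 in Treg PBS, 1.16 in CD4 PBS, 0.98 in CD8 PBS, 0.04 in CD4 DTx and -0.23 in CD8 DTx on the log2 scale. Here the Treg range (-0.32 to 0.64) overlapped both DTx groups and lay below both PBS Tconv groups. These ratios were computed as a description and were not tested, and since they compare genes of unequal length, only their differences between groups are read.

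**Figure D2:**
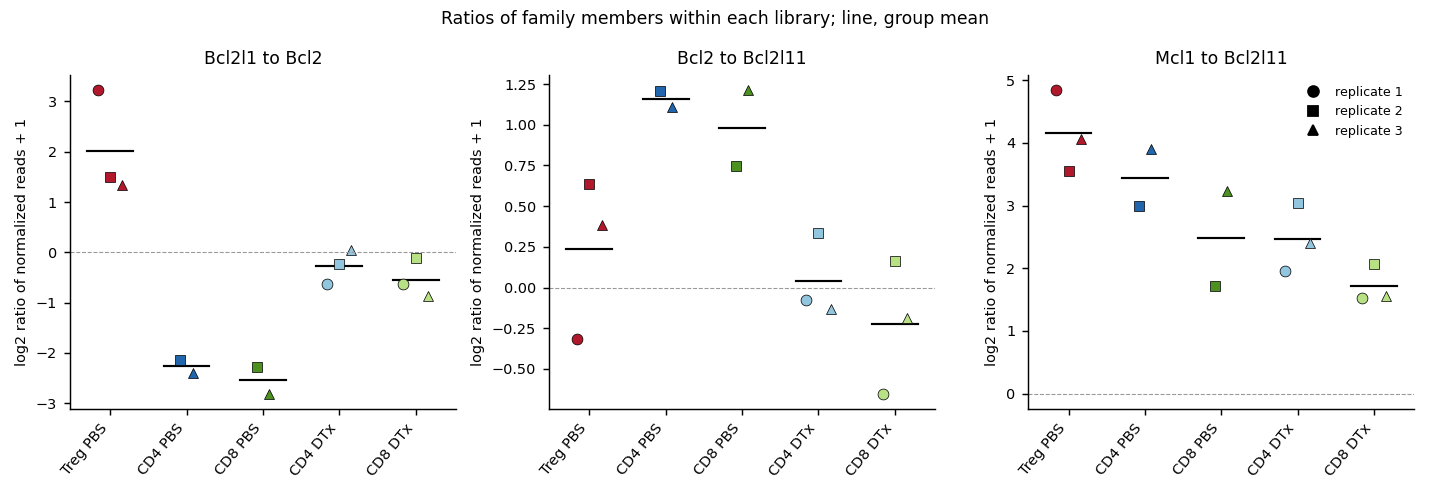
Log2 ratios of normalized reads plus 1 within each library (vertical axis) for Bcl2l1 to Bcl2, Bcl2 to Bcl2l11 and Mcl1 to Bcl2l11, by group, with a line at the group mean and the replicate number as the symbol. For Bcl2l1 to Bcl2 the DTx libraries, between -0.87 and 0.05, lie apart from Treg PBS (1.34 or more) and from the PBS Tconv libraries (-2.14 or less).

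Mcl1, which encodes a short-lived pro-survival protein, had the highest level of the family. Its values were 8284, 6828 and 14603 in Treg cells, 12303 and 23409 in CD4 PBS, 9128 and 16475 in CD8 PBS, 6164, 9765 and 10342 in CD4 DTx, and 6278, 6136 and 9016 in CD8 DTx. Each DTx group lay below its own PBS group, but Treg PBS overlapped CD4 PBS, CD8 PBS and both DTx groups. No difference of Mcl1 between groups passed in the main fit, the largest being -0.99 for CD4 DTx against CD4 PBS (SE 0.39, limma, adjusted p = 0.129). With the replicate number as a block it passed (-0.86, limma, adjusted p = 0.0263). The difference of Treg PBS from CD4 PBS then passed too (-0.72, limma, adjusted p = 0.0388). Both also passed with replicate 3 as a covariate, a fit added after seeing the data. The ratio of Mcl1 to Bcl2l11 averaged 4.16 in Treg PBS, 3.44 in CD4 PBS, 2.48 in CD8 PBS, 2.46 in CD4 DTx and 1.72 in CD8 DTx on the log2 scale.

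Within groups Mcl1 differed by replicate number. Replicate 3 had the highest Mcl1 in all 5 groups, as 3.91% of tested genes did, and it was above the other replicates of its group by 0.72 on average (SE 0.14, limma, adjusted p = 0.128), which missed the threshold that 0.111% of genes passed. The immediate early transcripts Fos, Jun, Junb and Dusp1, which rise within minutes of cell stimulation or tissue handling, were also highest in replicate 3 of all 5 groups. Fos reached 38019 normalized reads in Treg PBS replicate 3 against 427 and 2378 in replicates 1 and 2, and 54781 against 5052 in CD4 PBS, and it was 3.17 higher in replicate 3 over all groups (SE 0.55, limma, adjusted p = 0.081). All 5 replicate 3 libraries had the male transcript Ddx3y and no Xist, and all 8 other libraries had Xist and no Ddx3y. Sex, immediate early level and replicate number therefore cannot be told apart. The sum of 10 immediate early genes ranged over 53012 to 216670 for CD4 PBS, 19658 to 36483 for CD4 DTx, 32991 to 195410 for CD8 PBS and 12751 to 19368 for CD8 DTx, so it was lower after DTx in the same direction as Mcl1, and its part in the Mcl1 values was not tested. Bad went the other way, with its lowest value in replicate 3 of all 5 groups (4.61% of genes).

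**Figure D3:**
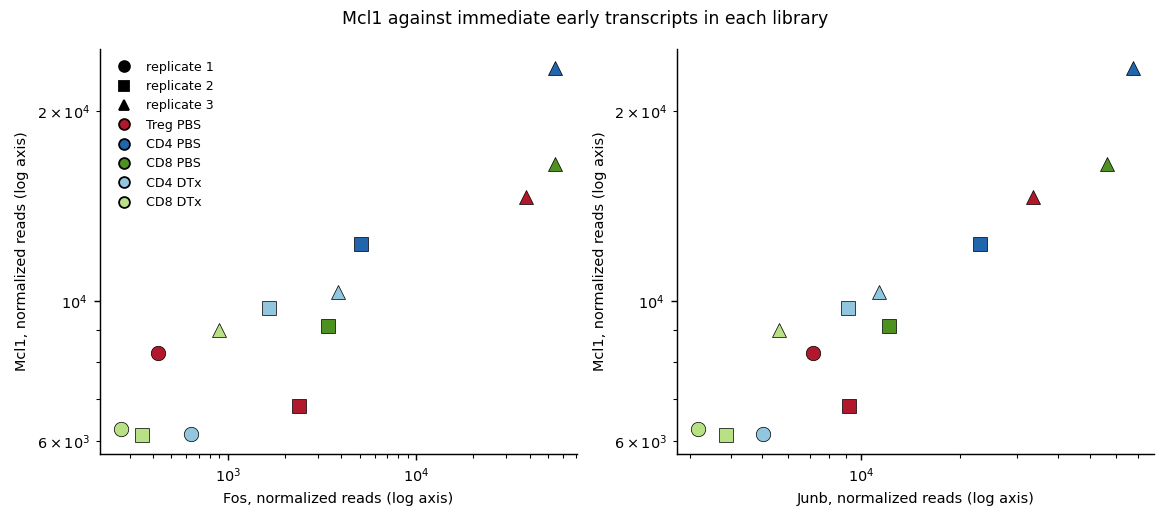
Mcl1 (vertical axis) against Fos (left) and Junb (right) in the 13 libraries, in normalized reads on log axes, with the group as color and the replicate number as symbol. The replicate 3 libraries of the 3 PBS groups sit at the upper right, with Fos at 38019 or more and Mcl1 at 14603 or more.

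Among the BH3-only genes, Bcl2l11, which encodes BIM, was lowest in Treg cells. It was at 287, 581 and 871 in Treg cells, 1543 and 1573 in CD4 PBS, 2768 and 1752 in CD8 PBS, 1591, 1189 and 1961 in CD4 DTx, and 2176, 1464 and 3064 in CD8 DTx. Every Treg library was below every Tconv library, and each DTx group overlapped its PBS group. Treg PBS was below CD4 PBS by -1.57 (SE 0.43, limma, adjusted p = 0.0234) and below CD8 PBS by -2.06 (SE 0.43, limma, adjusted p = 0.00623). CD4 DTx was above Treg PBS by 1.56 (SE 0.39, limma, adjusted p = 0.0291) and CD8 DTx by 2.02 (SE 0.39, limma, adjusted p = 0.00608). DTx itself gave differences of -0.01 in CD4 cells (95% interval -0.95 to 0.93) and -0.04 in CD8 cells (95% interval -0.98 to 0.90). The call against CD4 PBS was lost without Treg PBS replicate 1 (-1.13, limma, adjusted p = 0.0719) and without CD4 PBS replicate 2 or 3 (-1.58 and -1.55), and the call against CD8 PBS without CD8 PBS replicate 2 (-1.73, limma, adjusted p = 0.0715). The call of CD4 DTx against Treg PBS was lost without Treg PBS replicate 1 or 2 or CD4 DTx replicate 1 or 3 (1.12 to 1.63), and those of Treg PBS against CD4 PBS and of CD4 DTx against Treg PBS when only the groups compared were fitted (limma, adjusted p = 0.0906 and 0.109).

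Bid, whose product links death receptors to mitochondria once caspase-8 cleaves it, was highest in Treg cells. It was at 3178, 2474 and 2144 in Treg cells, 905 and 985 in CD4 PBS, 1564 and 1553 in CD8 PBS, 886, 1301 and 1140.4 in CD4 DTx, and 1545, 1493 and 1532 in CD8 DTx. No Tconv library reached the lowest Treg library. Treg PBS exceeded CD4 PBS by 1.44 (SE 0.22, limma, adjusted p = 0.000689) and CD8 PBS by 0.72 (SE 0.22, limma, adjusted p = 0.0385), and it also exceeded the DTx groups, with CD4 DTx lower by -1.23 (SE 0.20, limma, adjusted p = 0.00257) and CD8 DTx by -0.75 (SE 0.20, limma, adjusted p = 0.0325). The call against CD8 PBS was lost without Treg PBS replicate 1 or 2 or CD8 PBS replicate 2 or 3 (0.56 to 0.74), and that of CD8 DTx against Treg PBS without Treg PBS replicate 1 or 2 or any 1 CD8 DTx library (-0.78 to -0.60). Both were also lost when only the groups compared were fitted (limma, adjusted p = 0.0635 and 0.0898) and without the mean trend (limma, adjusted p = 0.0567 and 0.0537). Bcl2l13, whose exons overlap those of Bid on the opposite strand, was at 951, 893 and 1427 in Treg cells, 1214 and 1397 in CD4 PBS, and 1561 and 1887 in CD8 PBS. Its Treg values overlapped CD4 PBS and lay below CD8 PBS, and without a stated strand setting reads of the pair cannot be told apart.

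Pmaip1, which encodes NOXA, an antagonist of MCL-1, showed the largest difference of the family at readable levels. Its values were 1196, 1189 and 2507 in Treg cells, 102 and 141 in CD4 PBS, 281 and 517 in CD8 PBS, 818, 697 and 705 in CD4 DTx, and 1113, 888 and 1202 in CD8 DTx. The PBS Tconv libraries were below all others, and CD4 DTx was also below every Treg library. Treg PBS exceeded CD4 PBS by 3.66 (SE 0.37, 12.6-fold, limma, adjusted p = 5.30e-05) and CD8 PBS by 2.001 (SE 0.37, 4.003-fold, limma, adjusted p = 0.00298). With DTx, Pmaip1 rose 6.09-fold among CD4 cells (2.61, SE 0.37, limma, adjusted p = 0.000703) and 2.78-fold among CD8 cells (1.47, SE 0.37, limma, adjusted p = 0.0251). The rise in CD4 cells and both Treg differences kept their calls in each of the 17 alternative analyses. The call in CD8 cells was lost without CD8 PBS replicate 2 (1.03, limma, adjusted p = 0.227), CD8 PBS replicate 3 (1.91) or CD8 DTx replicate 1 (1.44), and when only CD8 libraries were fitted (limma, adjusted p = 0.0992). CD4 DTx differed from Treg PBS by -1.05 (SE 0.33), which missed the threshold (limma, adjusted p = 0.0747).

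Bbc3, which encodes PUMA, a BH3-only protein that binds all pro-survival members, ran against Pmaip1. It was at 132, 108 and 225 in Treg cells, 1383 and 453 in CD4 PBS, 989 and 504 in CD8 PBS, 142, 228 and 409.6 in CD4 DTx, and 171, 112 and 365 in CD8 DTx. Every PBS Tconv library was above every Treg and DTx library, although CD4 PBS replicate 2 had far more than replicate 3. Treg PBS was below CD4 PBS by -2.41 (SE 0.65, limma, adjusted p = 0.0201) and below CD8 PBS by -2.25 (SE 0.65, limma, adjusted p = 0.03). For DTx against PBS the differences were -1.74 among CD4 cells (SE 0.65, limma, adjusted p = 0.105) and -1.88 among CD8 cells (SE 0.65, limma, adjusted p = 0.0845), and neither passed in limma, whereas with DESeq2 both did (-1.82, adjusted p = 0.038, and -1.79, adjusted p = 0.045). When only the groups compared were fitted, the call against CD4 PBS was lost (limma, adjusted p = 0.0567). That call was also lost without Treg PBS replicate 1 or 2 or CD4 PBS replicate 2 (-2.33 to -1.61), while without CD4 PBS replicate 3 it held at -3.22, that against CD8 PBS was lost without Treg PBS replicate 1 or 2 or CD8 PBS replicate 2 or 3 (-2.74 to -1.76), and without CD8 DTx replicate 3 the difference of CD8 DTx from CD8 PBS passed (-2.34, limma, adjusted p = 0.0295).

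Bad, whose product growth factor signals hold inactive by phosphorylation, was at 619, 599 and 317 in Treg cells, 256 and 236 in CD4 PBS, 276 and 255 in CD8 PBS, 567, 519 and 508 in CD4 DTx, and 678, 518 and 275 in CD8 DTx. The PBS Tconv libraries were the lowest apart from 1 CD8 DTx library, replicate 3, that lay within the CD8 PBS range. No difference of Bad passed in limma, the largest being 1.11 in CD4 cells after DTx (SE 0.40, limma, adjusted p = 0.0975). With DESeq2 this one passed (1.12, adjusted p = 0.0471), as did the excess of Treg PBS over CD4 PBS (1.06, adjusted p = 0.0486). Without Treg PBS replicate 3 the excess over CD4 PBS passed (1.31, limma, adjusted p = 0.0383), as did the excess of CD8 DTx over CD8 PBS without CD8 DTx replicate 3 (1.16, limma, adjusted p = 0.0433). Exons of Gpr137 overlap Bad on the opposite strand, so some of its reads are uncertain.

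The effectors BAX and BAK are largely interchangeable in their function, but their transcripts were far apart. Bax was at 2135, 1739.8 and 1484 in Treg cells, 1636 and 1535 in CD4 PBS, 1810.2 and 1845 in CD8 PBS, 2382, 1903 and 2054 in CD4 DTx, and 2517, 1736 and 1887 in CD8 DTx. Treg and PBS Tconv libraries overlapped, and the CD4 DTx libraries were the only ones to lie wholly above their PBS group. The widest difference from zero was 0.41 for CD4 DTx over CD4 PBS (SE 0.22, 95% interval -0.06 to 0.88, limma, adjusted p = 0.258). Bax shares exons with Gm45808 on the same strand.

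Bak1 was near the floor. It was at 10.2, 14.1 and 21.2 in Treg cells, 0 and 0.661 in CD4 PBS, 0 and 0 in CD8 PBS, 36.5, 36.8 and 2.63 in CD4 DTx, and 13.9, 22.2 and 9.42 in CD8 DTx. All PBS Tconv libraries were below the floor, and CD4 DTx replicate 3 was too. In reads, 43 were counted over the 3 Treg libraries, 1 over the 2 CD4 PBS libraries, 0 over the 2 CD8 PBS libraries, 77 over CD4 DTx and 45 over CD8 DTx. The ratio of Treg PBS to CD4 PBS was 32.7, with an exact 95% counting interval of 5.56 to 1321, and that of CD4 DTx to CD4 PBS was 61.6 (10.7 to 2465). These intervals cover only the counting error of reads pooled over the libraries of a group. They leave out the spread between libraries, and the CD4 DTx libraries held 39, 36 and 2 reads. Against a floor of 3 reads per library, Treg PBS and CD8 DTx were each at least 3.96-fold higher than CD8 PBS. In limma, Bak1 was higher in Treg PBS than in CD4 PBS (adjusted p = 0.0436) and CD8 PBS (adjusted p = 0.0306) and higher in CD8 DTx than in CD8 PBS (adjusted p = 0.0461), whereas CD4 DTx against CD4 PBS missed the threshold (adjusted p = 0.0507). The test of the difference between these DTx effects gave -0.19 (SE 1.62, limma, adjusted p = 1). Both Treg calls were lost on leaving out any 1 of the 5 libraries (limma, adjusted p from 0.0544 to 0.205), that of CD8 DTx on leaving out either CD8 PBS library or CD8 DTx replicate 1 or 2 (limma, adjusted p from 0.102 to 0.255), and all of them with a pseudocount of 10 or with edgeR, while CD4 DTx passed without replicate 3 (limma, adjusted p = 0.0108). With the replicate number as a block, the calls of Treg PBS against CD4 PBS and of CD8 DTx were lost too (limma, adjusted p = 0.0615 and 0.0611). That of CD8 DTx was also lost when only the groups compared were fitted (limma, adjusted p = 0.0539) and with replicate 3 as a covariate (limma, adjusted p = 0.0513). Ggnbp1 overlaps exons of Bak1 on the opposite strand.

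To ask how tumor Treg cells differ from the Tconv cells beside them, Treg PBS was compared with CD4 PBS and CD8 PBS. Bcl2l1, Bid, Pmaip1 and Bak1 were higher in Treg cells, and Bcl2, Bcl2l11 and Bbc3 were lower, against either Tconv group. Both pro-survival and death-promoting genes were thus found on each side. In all, 7 of the 10 genes were called against CD4 PBS, where 20.4% of the 12667 genes tested were called, and 7 against CD8 PBS, where 18.7% were. Groups did not overlap for 8 genes in each comparison, beside 56.7% and 58.0% of all genes. Past 4-fold there were 4 and 5 of the 10, beside 10.2% and 9.41% of all genes. The median log2 fold change of the 10 genes was 0.57 against CD4 PBS and 0.33 against CD8 PBS, and that of all genes was 0.01 and 0.02. The comparisons share the 3 Treg libraries and are not independent. Without the 5 libraries numbered 3, only replicate 2 of CD4 PBS and of CD8 PBS remained, so calls there rest on the spread of other groups. Against CD4 PBS and CD8 PBS, Pmaip1 was then at 3.53 and 2.08, Bbc3 at -3.52 and -3.04, and Bcl2 at -2.96 and -3.34. Bcl2l11 was at -1.92 and -2.76, Bcl2l1 at 1.55 and 1.30, Bid at 1.63 and 0.84, and Bak1 at 3.70 in both. With only replicate 2 on the Tconv side, these are log2 fold changes and not calls.

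**Figure D4:**
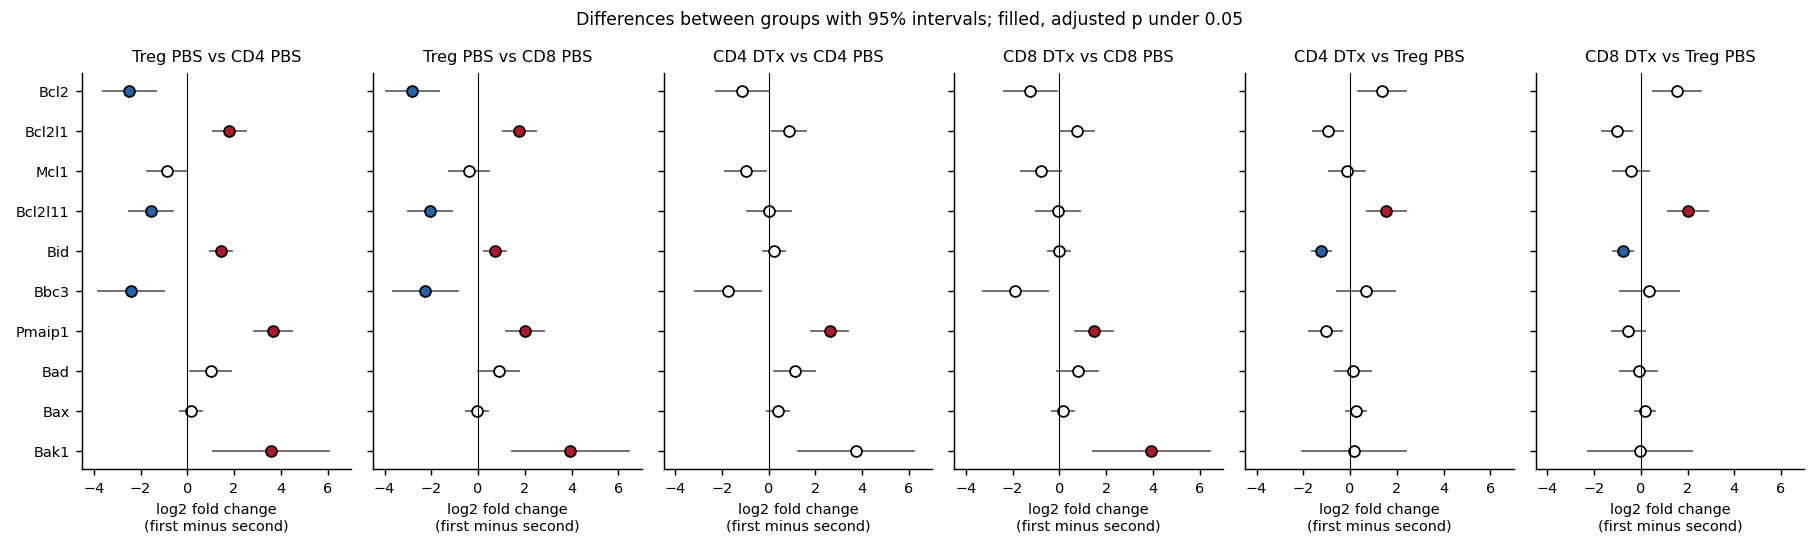
Log2 fold changes on the log2(value + 1) scale (horizontal axis, first group minus second) of the 10 genes in 6 comparisons, with 95% intervals from limma as lines and filled circles where the adjusted p was under 0.05. Of the 7 filled genes in the Treg comparisons with PBS Tconv cells, Pmaip1 alone is filled in both comparisons of DTx with PBS, at 2.61 and 1.47.

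DTx was compared with PBS within CD4 and CD8 cells. All 5 groups carried the DTx receptor allele, so effects of the toxin itself and of Treg cell loss cannot be told apart here. Pmaip1 rose in both cell types, and it was the only one of the 10 genes called in CD4 cells, where 12.7% of all genes were called. In CD8 cells 2 were called, Pmaip1 and the scarce Bak1, beside 10.9% of all genes. Counts of 1 and 2 of 10 are near these shares. Past 4-fold there was 1 of the 10 in each cell type (6.85% and 5.46% of all genes), Pmaip1 in CD4 cells and Bak1 in CD8 cells. Every DTx library had less Bcl2 than the PBS libraries of its cell type, but the differences of -1.13 among CD4 cells (SE 0.52, limma, adjusted p = 0.194) and -1.25 among CD8 cells (SE 0.52, limma, adjusted p = 0.152) did not pass. When only the CD4 groups were fitted, that among CD4 cells passed (limma, adjusted p = 0.0224). Groups did not overlap for 8 genes in CD4 cells and 6 in CD8 cells, beside 46.3% and 43.6% of all genes. Of the 10 proliferation genes, 6 rose after DTx in CD4 cells and 8 in CD8 cells, and their part in these differences was not tested. Without the libraries numbered 3, only replicate 2 of CD4 PBS and of CD8 PBS remained, and Pmaip1 was at 2.87 in CD4 cells and 1.82 in CD8 cells.

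DTx-treated Tconv cells were also set against Treg cells from PBS-treated mice. Bcl2l11 was higher and Bid lower than in Treg cells in both CD4 DTx and CD8 DTx, and these were the 2 genes called of 10 in each comparison, beside 7.91% and 8.60% of all genes. Groups did not overlap for 5 and 4 of the 10 (25.4% and 22.6% of all genes), and past 4-fold there were 0 and 1, the latter Bcl2l11 (4.01% and 4.93%). Bcl2 differed by 1.36 (limma, adjusted p = 0.103) and 1.56 (limma, adjusted p = 0.063), and Bcl2l1 by -0.93 (limma, adjusted p = 0.0756) and -1.0045 (limma, adjusted p = 0.0556), in CD4 DTx and CD8 DTx. With DESeq2, Bcl2l1 passed in both (adjusted p = 0.0436 and 0.0227), Bcl2 in CD8 DTx (adjusted p = 0.027) and Pmaip1 in CD4 DTx (adjusted p = 0.0152). With the replicate number as a block, Bcl2 and Bcl2l1 passed in both and Pmaip1 in CD4 DTx (limma, adjusted p from 0.0139 to 0.0282). Without Treg PBS replicate 3, which held the highest Bcl2 of the Treg libraries, the Bcl2 differences passed, at 1.80 (limma, adjusted p = 0.0442) and 1.9978 (limma, adjusted p = 0.0276). Without all libraries numbered 3, none of the 10 genes was called, with Bcl2l11 at 1.75 and 2.13.

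CD4 and CD8 cells were compared under each treatment. Under PBS none of the 10 genes was called by limma (1.08% of all genes were), 2 had an unadjusted p under 0.05 (6.53% of all genes), edgeR called 0 and DESeq2 called 1, which was Pmaip1. CD4 minus CD8 cells gave -1.65 for Pmaip1 (SE 0.40, limma, adjusted p = 0.094) and -0.72 for Bid (SE 0.24, limma, adjusted p = 0.332), and these were among 5 genes without overlap (42.4% of all genes). After DTx limma, edgeR and DESeq2 each called 0 of them (1.64% of all genes were called by limma), 1, Bid, had an unadjusted p under 0.05 (11.4%), and 2, Bid and Pmaip1, did not overlap (13.9%). The test of whether DTx acted differently in the 2 cell types called 0 of the 10 genes by any of the 3 tools, and 0 at an unadjusted p under 0.05 by limma, beside 0.0474% and 4.05% of all genes. Nearest was Pmaip1 (1.13, 95% interval -0.0017 to 2.27, limma, unadjusted p = 0.0503).

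Levels of different genes were compared per kilobase of merged exon. In GRCm38 the genes include Bcl2 at chr1:106538178-106714274 (minus strand), Bcl2l1 at chr2:152780668-152831728 (minus strand), Mcl1 at chr3:95658788-95663176 (plus strand), Bcl2l11 at chr2:128126038-128162547 (plus strand) and Bax at chr7:45461697-45466898 (minus strand). On this scale Mcl1 led in every group, at 2898 ± 1209 (SD, n = 3) normalized reads per kilobase in Treg PBS and 5224 ± 2298 (SD, n = 2) in CD4 PBS, and Bax was second, at 1134 ± 208 (SD, n = 3) and 1006 ± 45.2 (SD, n = 2). Bcl2 was at 82.8 ± 51.5 (SD, n = 3) per kilobase in Treg PBS and 380.2 ± 13.6 (SD, n = 2) in CD4 PBS, and Bcl2l1 at 554 ± 77.4 (SD, n = 3) and 159 ± 24.7 (SD, n = 2). Bcl2l1 therefore stood above Bcl2 per kilobase in Treg PBS and below it in CD4 PBS. Pmaip1 was at 597 ± 278 (SD, n = 3) per kilobase in Treg PBS and 44.6 ± 10.1 (SD, n = 2) in CD4 PBS. Bak1 was lowest, at 6.29 ± 2.32 (SD, n = 3) in Treg PBS and no more than 10.5 in any group mean.

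Genes with the most similar pattern over the 13 libraries were listed for the pro-survival genes and Bcl2l11, from 9714 genes with a mean of at least 100. For Bcl2 they were Gemin5 (Pearson r = 0.99), D8Ertd82e (0.97) and Top2b (0.97). For Bcl2l1 they were Ralgds (0.96), Trp53i11 (0.96) and Tnfrsf8 (0.94), and for Bcl2l11 Hdgfrp3 (0.95), Nod1 (0.95) and Chd7 (0.95). For Mcl1, Junb (0.95) and Ddx5 (0.95) were among them, of which Junb is an immediate early gene that was highest in replicate 3 of every group. Among the 10 genes themselves, Bcl2 and Bcl2l11 had r = 0.85 and Bbc3 and Bak1 r = -0.86. These are descriptions over libraries that share groups and replicate numbers.

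The other parts of the apoptosis pathway were examined as lists. Of 8 other BCL-2 family genes tested, 2 were higher in Treg PBS than in CD4 PBS and 3 than in CD8 PBS, with 0 lower, beside 20.4% and 18.7% of all genes called in either direction. After DTx 3 rose in CD4 cells and 2 in CD8 cells, beside 12.7% and 10.9%. Bnip3, a mitochondrial BH3-like gene known to respond to low oxygen, was at 2745, 4538 and 4838 in Treg cells, 395 and 461 in CD4 PBS, and 492 and 343 in CD8 PBS, a difference of 3.20 from CD4 PBS (SE 0.31, limma, adjusted p = 4.11e-05). With DTx it rose by 1.22 among CD4 cells (limma, adjusted p = 0.0205) and by 1.95 among CD8 cells (limma, adjusted p = 0.00239). Bcl2a1b, a pro-survival gene of the A1 cluster, was also higher in Treg PBS (2.54, limma, adjusted p = 0.00108) and after DTx (2.27 in CD4 and 2.08 in CD8 cells), but its near-identical copies make its reads uncertain. Bik, a BH3-only gene, rose in CD4 cells from 17.8 and 7.93 to 57, 63.4 and 50 (limma, adjusted p = 0.0433), and the test of a difference from its CD8 effect gave 2.08 (limma, adjusted p = 1). The list's median was 1.43 and 0.57 for Treg PBS against CD4 PBS and CD8 PBS and 1.14 and 0.87 for DTx in CD4 and CD8 cells, where those of all genes were 0.01, 0.02, -0.04 and -0.03.

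Downstream of the mitochondria, inhibitor proteins hold caspases in check. Of 5 caspase inhibitor genes, Birc3 was higher in Treg PBS than in both Tconv groups (0.52 and 1.24) and Birc2 than in CD8 PBS (0.91, limma, adjusted p = 0.0177), and 0 were called after DTx, beside 20.4%, 18.7%, 12.7% and 10.9% of all genes. In the same order of comparisons, the medians were 0.52, 0.91, -0.12 and -0.11 over the inhibitors. After DTx 1 inhibitor in each cell type had an unadjusted p under 0.05 in limma. At least 2665 genes in CD4 cells and 3012 in CD8 cells, of 12667 tested, had that too.

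**Figure D5:**
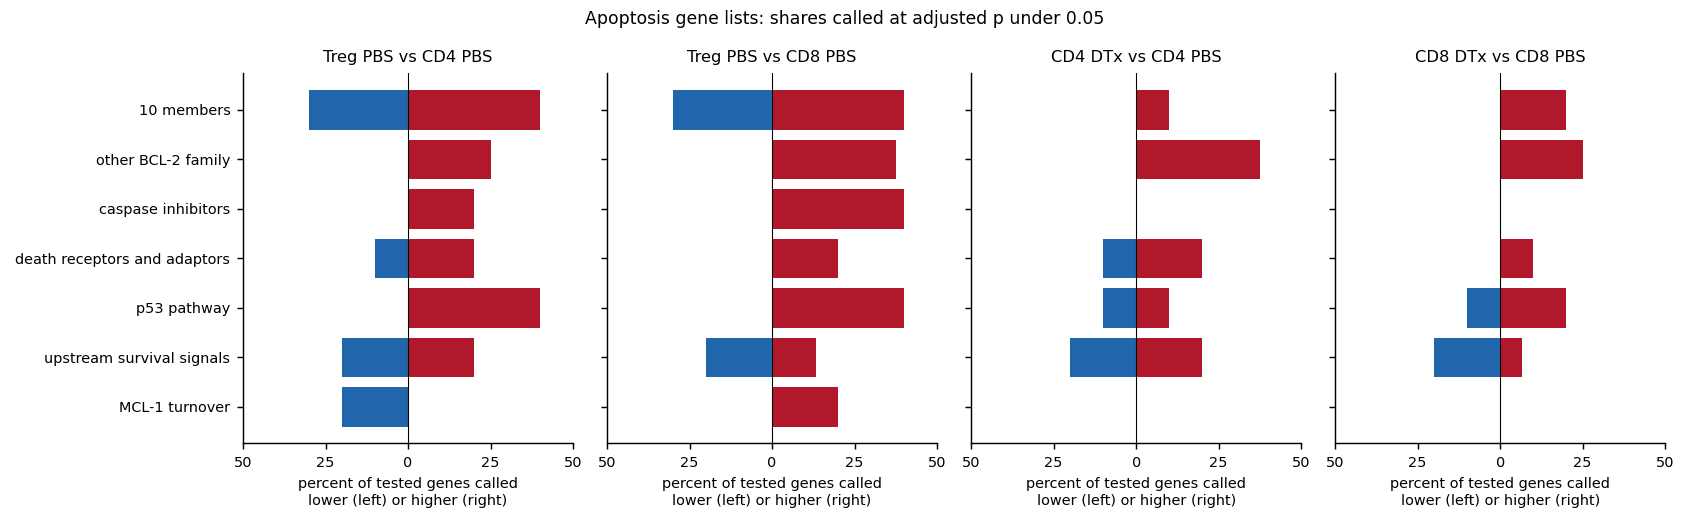
Share of the tested genes of each list called higher (right, red) or lower (left, blue) in 4 comparisons, in percent on a linear axis, at an adjusted p under 0.05 in limma. The 10 BCL-2 family genes have calls on both sides in the comparisons of Treg PBS with Tconv cells and calls on the higher side alone after DTx, and the lists of caspase inhibitors and of MCL-1 turnover genes have no bar after DTx.

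Upstream, 3 of 10 death receptor and adaptor genes were called in CD4 cells after DTx and 1 in CD8 cells, beside 12.7% and 10.9% of all genes. In CD4 cells 2 rose and 1, Tnfrsf1a, fell (-1.27, limma, adjusted p = 0.00387), and in CD8 cells 1 rose. In Treg PBS 2 were higher and 1 lower than in CD4 PBS, and 2 were higher than in CD8 PBS, beside 20.4% and 18.7%. Fasl, the ligand of the death receptor Fas, went from 1066 and 1028 in CD4 PBS to 7380.0, 3759.6 and 4259 in CD4 DTx and from 1505 and 576 in CD8 PBS to 14066, 10837 and 7772 in CD8 DTx, while Treg PBS held 630.0, 503 and 458. It rose by 2.23 (SE 0.40, limma, adjusted p = 0.00293) and 3.51 (SE 0.40, limma, adjusted p = 0.000496). Tnfrsf1b, which encodes a TNF receptor without a death domain, was higher in Treg PBS than in CD4 PBS by 3.05 (SE 0.32, limma, adjusted p = 6.78e-05). Of 10 p53 pathway genes, 4 were higher in Treg PBS against either Tconv group and 0 lower, beside 20.4% and 18.7% of all genes called. After DTx 1 rose and 1 fell in CD4 cells, and 2 rose and 1 fell in CD8 cells, beside 12.7% and 10.9%. Cdkn1a, a cell cycle inhibitor, was higher by 2.51 in Treg PBS than in CD4 PBS (limma, adjusted p = 0.00159) and rose after DTx by 2.45 in CD4 cells (limma, adjusted p = 0.00279) and 2.07 in CD8 cells (limma, adjusted p = 0.0101). Sesn1, a stress-response gene that p53 and FOXO factors activate, fell after DTx in both CD4 (-2.13, limma, adjusted p = 0.000682) and CD8 cells (-1.87, limma, adjusted p = 0.00254). Medians were -0.55, -0.23, -0.06 and 0.45 over the death receptor list and 0.83, 0.945, 0.74 and 0.70 over the p53 list.

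Of 15 genes for survival signals, in Treg cells 3 were higher and 3 lower than in CD4 PBS, 2 higher and 3 lower than in CD8 PBS, and after DTx 3 rose and 3 fell in CD4 cells and 1 rose and 3 fell in CD8 cells. The shares of all genes called were 20.4%, 18.7%, 12.7% and 10.9% in these comparisons, which also apply to the MCL-1 turnover genes. Il2ra, a subunit of the high-affinity IL-2 receptor, was at 11400.5, 19950.0 and 13052 in Treg cells, 223 and 126 in CD4 PBS, and 4469, 3158 and 3351 in CD4 DTx, and it rose by 4.42 in CD4 cells (SE 0.52, limma, adjusted p = 0.000239) and by 3.63 among CD8 cells (limma, adjusted p = 0.00161). Tcf7, a transcription factor of resting and memory T cells, was at 395, 3020.2 and 3807 in Treg PBS but at 51745 and 67509 in CD4 PBS, and the effect of DTx was -2.71 among CD4 cells (limma, adjusted p = 0.0242) and -2.79 among CD8 cells (limma, adjusted p = 0.0254). Il7r, the IL-7 receptor chain, named for these comparisons after its values were seen, was at 4869.6, 7465 and 6383 in Treg PBS and 21819 and 15339 in CD4 PBS (-1.57, limma, adjusted p = 0.00355), and it had a difference of -0.22 after DTx in CD4 cells (limma, adjusted p = 0.676). Among CD8 cells Il7r was at 11987 to 16930 with PBS and lower, at 7474 to 10722, with DTx. These ranges did not overlap, as for 43.6% of all genes. CD4 DTx was above Treg PBS by 1.35 (limma, adjusted p = 0.0107). The MCL-1 turnover list held 5 genes, Huwe1, Usp9x, Fbxw7, Trib1 and Trib2. Trib2 alone was called against CD4 PBS, lower in Treg cells (-2.73, limma, adjusted p = 0.00634). Trib1 alone was called against CD8 PBS, higher in Treg cells (3.15, limma, adjusted p = 0.011). Huwe1, Usp9x and Fbxw7 were called in neither, and a role of Trib1 or Trib2 in MCL-1 turnover was not tested. After DTx 0 of the 5 were called. In limma 1 in CD4 and 2 in CD8 cells had an unadjusted p under 0.05. At least 2665 and 3012 of the 12667 genes tested had that too. Medians were 0.11, 0.07, -0.0036 and -0.10 over the survival signals and -0.34, -0.32, -0.56 and -0.25 over the MCL-1 turnover genes.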

How the data were processed

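RNA was extracted from FACS-sorted T cells, and per the labels libraries were made with SmartSeq2 and sequenced on an Illumina HiSeq. According to the study's methods, the authors trimmed reads with Cutadapt, aligned them with hisat2 to NCBIM37 (mm9) and kept unique alignments, and scaled gene values by library size with intergenic reads taken into account, and their processing notes name DESeq2. The counter, strand setting and gene filter are not given in the sources used here. The authors deposited 1 table of normalized signal per gene and library, named FPM, although its column sums exceed what FPM allows, so the values are called normalized reads here. In each library 100% of values were whole multiples of 1 step within 0.01 read, so whole reads were recovered by division.

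Values of the 12667 of 12963 genes that reached 10 units in 2 or more libraries were put on a log2(value + 1) scale and fitted with limma 3.58.1 (R 4.3.3, trended prior variance), with 1 mean for each of the 5 groups and no covariates. A gene was called at a Benjamini-Hochberg adjusted p under 0.05 over all genes tested. The study used DESeq2, which needs counts, so edgeR 4.0.16 (quasi-likelihood) and DESeq2 1.42.0 (Wald) on recovered reads were alternatives. Other alternatives were a pseudocount of 10, no filter, TMM and median-of-ratios scaling, a 4-fold threshold, only the groups compared, the replicate number as a block, no mean trend and each library left out. Leaving out the 5 libraries numbered 3, and replicate 3 as a covariate, were added after seeing the data. The fit was also run on simulated reads for Treg PBS against CD4 PBS, with equal dispersion for every gene and no effect of replicate number. These settings are simpler than the real libraries, so that run lends no support to the calls here.

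Same-numbered libraries of CD4 DTx and CD8 DTx deviated together (r 0.207 to 0.59 over 3 pairs). With Treg PBS, r over 3 pairs was 0.037 to 0.25 for CD4 DTx and 0.0062 to 0.30 for CD8 DTx, positive but near 0 at the lower end. Other pairs of groups had only 2 pairs. No 2 libraries of a group were alike within sampling error (chi-square divided by its degrees of freedom, 44.6 to 251). The 10 genes and all lists were chosen with earlier results of these data known. Named genes were the 10 genes, up to 3 called genes per list and comparison with the largest fold change, and the 3 genes most like each of 4 members. Members of the other BCL-2 family list not analysed here were Bcl2l2, Bcl2a1a, Bcl2a1d, Bcl2l10, Hrk and Bok, and of the marker lists Mlana, Sox10, Hbb-b1, Hbb-b2 and Pax5. Some genes that this rule names, and 1 list, are not reported here. Promoter windows came from RefSeq (GRCm38.p6) and exon lengths from GENCODE M21 (GRCm38), not the build of the files, and Pmaip1 was not searched.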

Additional observations from a re-analysis of the deposited data

How the results depend on the processing

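With 2 or 3 libraries a group, many calls were near the threshold. Of 90 differences of the 10 genes, 55 kept their side of the threshold in every alternative, and 27 changed sign in some alternative, 0 of which were called. Leaving out 1 library gave 4 to 7 called genes for Treg PBS against CD4 PBS (7 as reported), 3 to 6 against CD8 PBS (7), 0 between CD4 PBS and CD8 PBS, 1 to 2 for DTx in CD4 cells (1), 0 to 4 in CD8 cells (2), 1 to 3 for CD4 DTx against Treg PBS (2) and 1 to 3 for CD8 DTx against Treg PBS (2). A lone remaining library was assumed to vary like the other groups.

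In the same order, the replicate block gave 7, 7, 1, 3, 2, 5 and 4, and it changed no call between CD4 DTx and CD8 DTx, the groups whose numbers pair. In both comparisons of DTx groups with Treg PBS, 4 of 6 libraries correlated best with their own number. The block added Bcl2 and Bcl2l1 in both of these and Pmaip1 in CD4 DTx (limma, adjusted p from 0.0139 to 0.0282). It also added Bcl2l1 for DTx in CD4 and CD8 cells (limma, adjusted p = 0.0179 and 0.0332), Pmaip1 between the PBS Tconv groups (limma, adjusted p = 0.0242), and Mcl1 for CD4 DTx (-0.86, limma, adjusted p = 0.0263) and Treg PBS (-0.72, limma, adjusted p = 0.0388) against CD4 PBS, as replicate 3 as a covariate did (-0.87 and -0.73, limma, adjusted p = 0.0222 and 0.0332). The block removed Bak1 for Treg PBS against CD4 PBS and for DTx in CD8 cells (limma, adjusted p = 0.0615 and 0.0611). DESeq2 gave 8, 7, 1, 4, 3, 4 and 4, and edgeR gave 6, 6, 0, 1, 1, 2 and 2. A 4-fold threshold gave 4, 5, 0, 1, 1, 0 and 1. Fitting only the groups compared gave 4 against CD4 PBS, 2 and 0 for DTx in CD4 and CD8 cells, and 1 and 1 for the DTx groups against Treg PBS. With no filter, TMM scaling, median-of-ratios scaling or no mean trend, DTx in CD4 cells gave 2, and with no mean trend the DTx groups against Treg PBS gave 1 each. A pseudocount of 10 gave 1 for DTx in CD8 cells. Chosen after seeing the data, leaving out the libraries numbered 3 gave 3, 1, 0, 2, 0, 0 and 0, and replicate 3 as a covariate gave 8, 7, 1, 2, 1, 3 and 3. Fewer libraries remain in the first of these, where 1005 of all genes were called against CD4 PBS in place of 2581. The cause of the other shifts was not tested.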
